A study of Mus musculus with 17 samples.

Results

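The dystrophin glycoprotein complex was followed through its genes Dmd, Utrn, Dag1, Sgca, Sgcb, Sgcd, Sspn and Dtna, picked by symbol. These are 8 of the 47643 gene symbols in a table of diaphragm transcript levels, and 8 of 8 passed the filter on low values that left 13305 genes for testing. The diaphragm, the main breathing muscle, came from 17 male C57BL/6J mice, all 4 months old. Tumor-free mice were injected into the peritoneal cavity with mock solution (bovine serum albumin in buffered saline; the Control group, n = 5) or with rFibcd1 (Control + rFibcd1, n = 5). Mice that carried Lewis lung carcinoma tumors, grown from cultured cells placed under the skin of the flanks, received mock (LLC, n = 3) or rFibcd1 (LLC + rFibcd1, n = 4). The LLC cells are an established mouse line of the same strain background, and rFibcd1 is a recombinant C-terminal piece of the mouse protein Fibcd1 that holds its fibrinogen-like domain. Each library came from the diaphragm of a separate mouse, so p-values measure the spread between mice. Levels are in TPM, transcripts per 1000000, a unit already divided by gene length, so that levels can be compared between genes. In bulk tissue, fewer cells of a type and less RNA per cell cannot be told apart, and the values are of transcripts, not of protein.

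Dystrophin, the product of Dmd, binds actin under the muscle cell membrane and, through its other end, dystroglycan, a membrane protein made from the single gene Dag1 that grips laminin outside the cell. The sarcoglycans (Sgca, Sgcb and Sgcd here) and the tetraspanin-like sarcospan (Sspn) form a subcomplex in the membrane beside dystroglycan, and dystrobrevin (Dtna) sits beneath it and carries syntrophins. Utrophin (Utrn) is the close relative of dystrophin that occupies the neuromuscular junction in mature fibers. Loss of dystrophin causes Duchenne muscular dystrophy, loss of a sarcoglycan causes a limb-girdle dystrophy, and the diaphragm is the most severely affected muscle of dystrophin-deficient mice.

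The 8 genes differ widely in size. On GRCm38, Dmd spans chrX:82948870-85206141 on the plus strand with 14 annotated transcripts, so that full-length muscle dystrophin and the short isoforms of other cell types are merged in its value. Utrn lies at chr10:12382188-12869365 (minus strand), Dag1 at chr9:108204634-108263958 (minus), Sgca at chr11:94962791-94976327 (minus), Sgcb at chr5:73632749-73647790 (minus), Sgcd at chr11:46896253-47988969 (minus) and Sspn at chr6:145931641-145965223 (plus). Only Sspn shares exons with another annotated gene, the antisense transcript Sspnos, which reached no more than 0.0966 TPM in any library.

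The promoters of Dmd, Dag1, Sgca and Sgcb are shown because in these members the RefSeq start lay within 53 bases of the 5′ end annotated by GENCODE, so that the window can be placed at the gene whose level was measured. Each run is the 250 bases ahead of the RefSeq start on GRCm38.p6, 5′ to 3′ on the strand of the gene. Capitals mark GGGCGG, the core of a GC box, or its reverse complement CCGCCC.
Dmd, chrX:82948620-82948869, plus strand: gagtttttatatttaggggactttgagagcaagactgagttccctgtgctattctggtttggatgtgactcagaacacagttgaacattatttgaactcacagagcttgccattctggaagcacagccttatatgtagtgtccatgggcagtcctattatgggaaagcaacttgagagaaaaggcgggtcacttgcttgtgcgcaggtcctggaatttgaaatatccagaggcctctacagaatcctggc
Sgca, chr11:94976328-94976577, minus strand: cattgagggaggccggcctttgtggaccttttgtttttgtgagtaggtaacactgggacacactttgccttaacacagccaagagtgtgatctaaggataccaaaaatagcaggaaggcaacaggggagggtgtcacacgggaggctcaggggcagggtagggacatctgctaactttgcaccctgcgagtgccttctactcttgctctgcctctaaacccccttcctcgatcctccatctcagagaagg
Sgcb, chr5:73647738-73647987, minus strand: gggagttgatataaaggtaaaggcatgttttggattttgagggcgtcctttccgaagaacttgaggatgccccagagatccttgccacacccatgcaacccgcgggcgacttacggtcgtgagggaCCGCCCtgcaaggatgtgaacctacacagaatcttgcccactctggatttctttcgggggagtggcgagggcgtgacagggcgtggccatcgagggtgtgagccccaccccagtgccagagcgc
Dag1, chr9:108263959-108264208, minus strand: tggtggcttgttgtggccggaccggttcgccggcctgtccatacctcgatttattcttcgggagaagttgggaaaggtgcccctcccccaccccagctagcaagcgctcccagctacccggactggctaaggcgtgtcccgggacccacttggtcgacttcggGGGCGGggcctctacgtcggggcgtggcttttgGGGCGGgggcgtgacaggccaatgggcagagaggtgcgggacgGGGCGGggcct
A total of 3 letter strings were searched on both strands. GGGCGG, found in 32.7% of the 32851 RefSeq windows of this length, occurred 3 times ahead of Dag1, 1 time ahead of Sgcb, and 0 times ahead of Dmd and Sgca. CAGCTG, an E-box that reads the same on both strands (13.0% of windows), and CCGGAA, an ETS core (3952 of the 32851 windows), were in none of the 4 windows. The GC content rose from 45.2% ahead of Dmd through 52.8% (Sgca) and 58.4% (Sgcb) to 67.6% (Dag1). These matches describe the sequence and were not tied to any change in level.

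In Control mice the most abundant member per length was Sgca, α-sarcoglycan, at 110.5 TPM ± 3.82 (SD, n = 5). Dag1 followed at 73.2 ± 3.82 TPM, then Sspn at 64.5 ± 2.08 TPM and Sgcb, β-sarcoglycan, at 52.8 ± 3.98 TPM. Dtna stood at 22.3 ± 1.45 TPM. The lowest were Utrn at 9.60 ± 0.759 TPM, Dmd at 6.93 ± 1.32 TPM and Sgcd, δ-sarcoglycan, at 3.83 ± 1.21 TPM. The ranges of neighbours in this order did not overlap among the 5 mice except for Dmd and Sgcd, where the lowest Dmd value (4.97 TPM) was under the highest Sgcd value (5.15 TPM). Over all 17 mice, Sgca was above 94.9% of the genes tested in mean level and Sgcd above 27.8%, so the membrane subcomplex held both the most and the least abundant transcript.

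**Figure D1:**
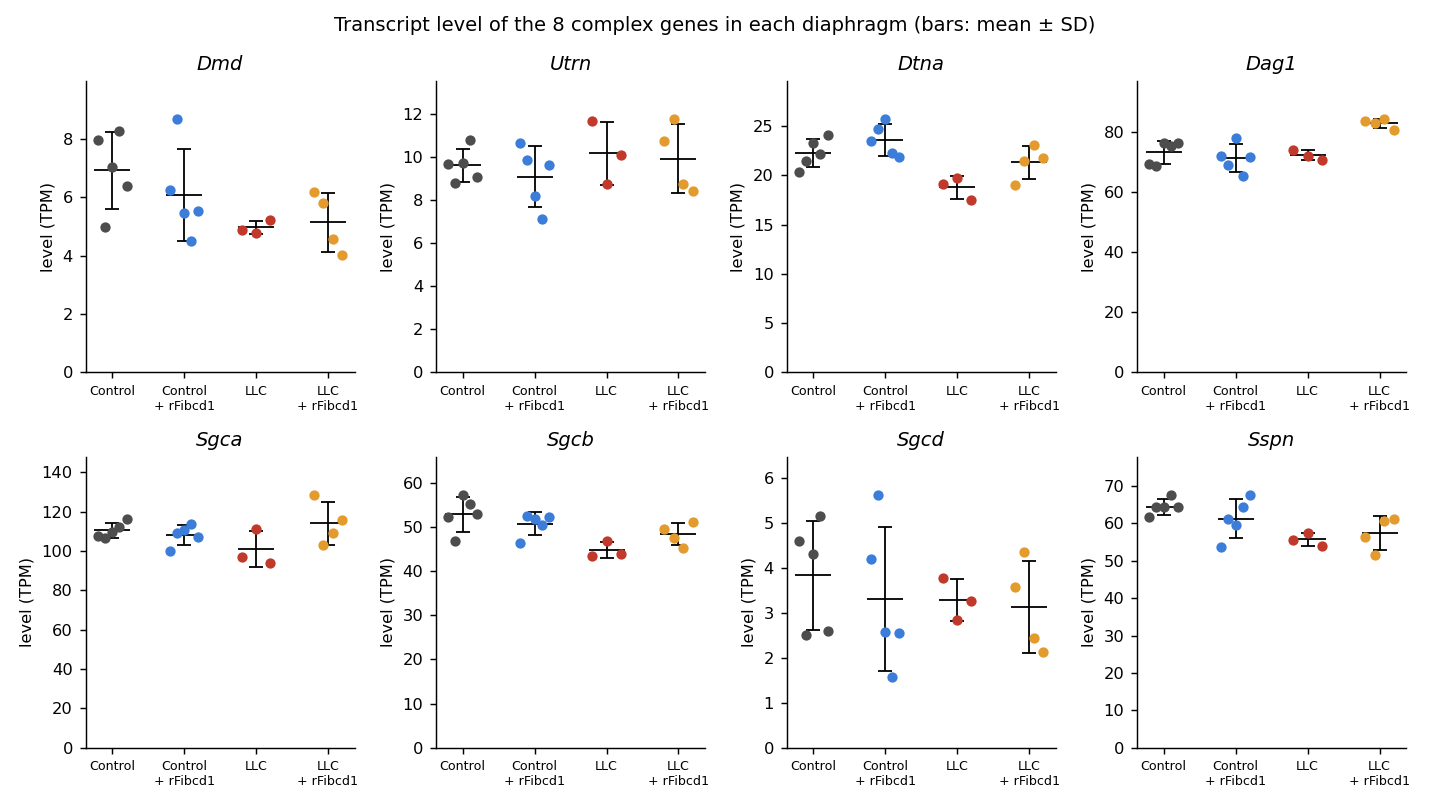
TPM of each of the 8 genes (vertical axis from 0) in the 4 groups; points are single mice and bars are the mean ± SD. LLC values of Sspn and Dtna lie below all Control values, the 4 LLC + rFibcd1 values of Dag1 lie above the values of the other groups, and Dmd and Sgcd are the most scattered within groups.

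The LLC against Control comparison asked which transcripts differed in tumor-bearing mice that had received mock injections. In LLC mice 3 members were lower and passed the test, Sgcb, Sspn and Dtna, which code for a sarcoglycan, sarcospan and dystrobrevin. Their mean TPM was 15.4%, 13.5% and 15.8% below Control. None of the 8 passed in the other direction, 5 did not pass, and 7 of 8 differences were negative, with a median of -0.17 on the log2(TPM + 1) scale. Among all genes tested, 35.8% passed in this comparison at an adjusted p under 0.05 (limma, Benjamini-Hochberg adjustment over all genes), 29.7% higher and 6.02% lower, and the median gene was higher by 0.16. Without LLC replicate 3, 24 genes passed in place of 4759, and 2272 when LLC replicate 1 was left out. Before adjustment, p was under 0.05 for 4 of 8 members, Dmd as the fourth, and for 48.3% of all genes. The 3 of 8 members thus stand beside a background of 6.02% for lower genes and 35.8% in either direction. The background for lower genes depended on the scaling: it was 14% with the libraries scaled by median ratios and 23.9% by quantiles, and 4 of 8 members were lower under each. With these scalings higher genes were 52.7% and 32.2% of those called, in place of 83.2%.

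Sspn, sarcospan, was in Control mice at 61.6, 64.4, 64.4, 67.5 and 64.4 TPM, and in LLC mice at 55.7, 57.5 and 54.1 TPM. Every LLC value was below every Control value. The difference was -0.21 ± 0.067 (log2, SE), with an adjusted p of 0.0299 by limma. The adjusted p was above the threshold without Control replicate 3, 4 or 5 or LLC replicate 1 or 3 (0.0509 to 0.123).

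Dtna (chr18:23415135-23659715, plus strand), which links dystrophin to the syntrophins, measured 20.4, 21.5, 23.3, 22.2 and 24.1 TPM in Control mice. In LLC mice it was at 19.1, 19.7 and 17.5 TPM, again without overlap. The difference was -0.24 ± 0.071 (log2, SE; adjusted p = 0.0220, limma), and the adjusted p was 0.0508 without Control replicate 5, 0.0534 without LLC replicate 1 and 0.123 without LLC replicate 3. Non-overlap of this kind, with LLC lower, was seen in 6.67% of all genes tested and in 2 of the 8 members, and in either direction in 40.2% of genes.

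Sgcb was at 52.1, 46.7, 57.3, 55.3 and 52.8 TPM in Control mice and at 43.5, 46.9 and 43.9 TPM in LLC mice. A single Control mouse, replicate 2, fell inside the LLC range. The difference was -0.23 ± 0.062 (log2, SE; adjusted p = 0.0149, limma), the smallest adjusted p of the 8, and the adjusted p was 0.0557 without LLC replicate 1 and 0.0778 without LLC replicate 3. In an exact permutation test over the 56 splits, two-sided and unadjusted, p was 0.0536 for Sgcb and 0.0179, the smallest these splits allow, for Sspn and for Dtna.

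Dmd had the largest difference of the 8 but also a wide spread. Its levels were 7.98, 4.97, 7.03, 8.27 and 6.41 TPM in Control mice and 4.89, 4.79 and 5.23 TPM in LLC mice. The 3 LLC values were close together, and Control replicate 2 lay among them. The mean was 28.2% below Control, the log2 difference was -0.39 ± 0.17 (SE), and the adjusted p of 0.0859 (limma) missed the threshold. Dmd did pass, with adjusted p from 0.00827 to 0.0428, when the libraries were scaled by median ratios, by quantiles or after removal of the mitochondrially encoded genes. It also passed without Control replicate 2 (-0.49, adjusted p = 0.0320). These 3 scalings kept Sgcb, Sspn and Dtna lower and past the threshold.

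The remaining members did not pass. Sgca was at 106.6 to 116.2 TPM in Control mice, and at 97.2, 111.4 and 94.2 TPM in LLC mice, where the highest value lay inside the Control range. Its difference was -0.13 ± 0.068 (log2, SE; adjusted p = 0.132, limma), and the adjusted p was 0.0352 without LLC replicate 2. Sgcd, the least abundant and least precise member, differed by -0.14 ± 0.28 (95% interval -0.73 to 0.45). For Dag1 the difference was -0.018 ± 0.052 (log2, SE) with a 95% interval from -0.13 to 0.092, the narrowest of the 8. For Utrn it was 0.068 ± 0.13 with an interval from -0.20 to 0.34, and its sign was negative under all 3 other scalings.

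The ratio of Utrn to Dmd within a library is unaffected by any factor that multiplies a whole library. It was 1.21 to 1.77 in Control mice, with a median of 1.38, and 1.13 to 1.73 in Control + rFibcd1 mice, with a median of 1.58. In LLC mice it was 1.82 to 2.38 (median 1.93) and in LLC + rFibcd1 mice 1.74 to 2.09 (median 1.96). The LLC and Control ranges did not overlap, and the LLC + rFibcd1 range began just under the highest Control value. The ratio was formed after the values of both genes were known and is given without a test.

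**Figure D2:**
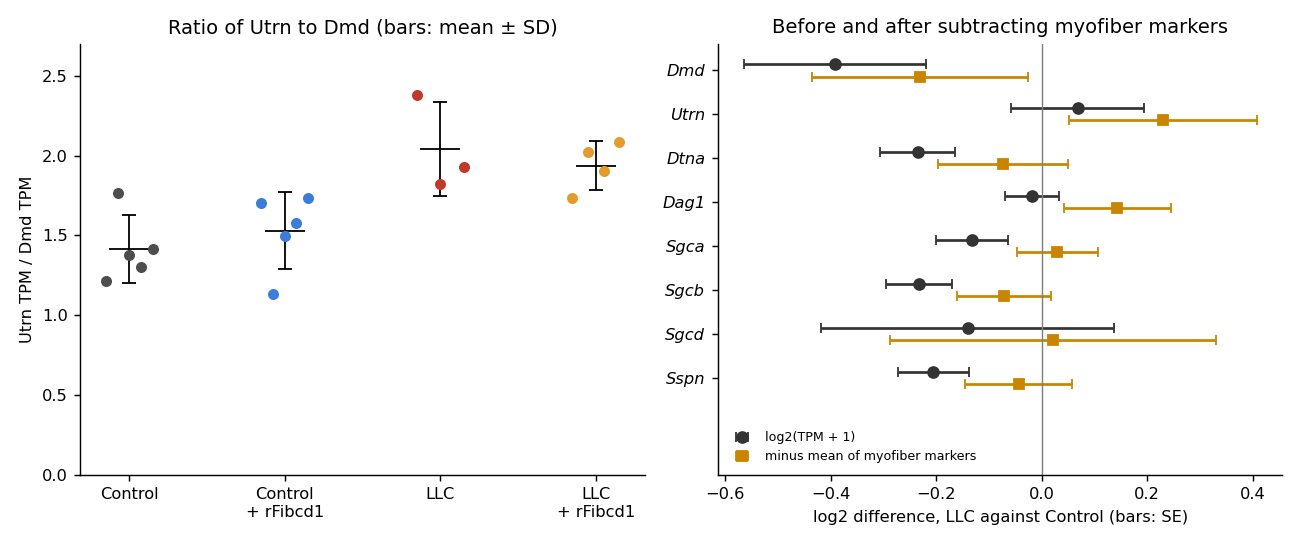
Left, Utrn TPM divided by Dmd TPM (vertical axis) in each mouse by group, with mean ± SD; the 3 LLC ratios run from 1.82 to 2.38 and the 5 Control ratios from 1.21 to 1.77. Right, log2 difference LLC against Control with SE (horizontal axis) for each gene, before (circles) and after (squares) subtraction of the mean of the myofiber markers; the subtraction moves each point to the right by the same amount, and Sgcb, Sspn and Dtna come close to 0.

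Values that moved with these differences are given beside them, and their part in the result was not tested except where stated. The summed level of the 15 myofiber markers was 64744 to 70148 TPM in Control mice and 55335 to 59155 TPM in LLC mice, without overlap. Of these markers, 8 of 15 were lower in LLC at an adjusted p under 0.05 and 0 higher, with a median difference of -0.26. The markers with the smallest adjusted p were the contractile genes Tnnt3 (-0.29), Myh1 (-0.64) and Tnni2 (-0.29) and the creatine kinase gene Ckm (-0.27). When the mean of the myofiber markers was subtracted in each mouse, the differences became -0.071 ± 0.089 for Sgcb, -0.044 ± 0.10 for Sspn and -0.073 ± 0.12 for Dtna (log2, SE), and 0 of 8 members passed (adjusted p from 0.252 to 0.958, limma). This subtraction moved every gene up by the same amount: the median gene went from 0.16 to 0.32, and 32.7% of all genes passed, 32.6% higher and 0.15% lower.

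Markers of other cells were compared in the same way, beside 29.7% of all genes higher in LLC and 6.02% lower. The 7 B cell markers summed to 2.41 to 97.5 TPM in Control mice and 222 to 282 TPM in LLC mice, and 7 of 7 were higher in LLC, as were 5 of 5 T cell markers and 4 of 6 macrophage markers. The 8 endothelial markers summed to 241 to 266 TPM in Control and 258 to 297 TPM in LLC, with 2 of 8 higher. That share was under the 29.7% of all genes, and the endothelial median of 0.13 was under the median gene at 0.16. Of the 6 smooth muscle and pericyte markers 3 were higher and 1 lower, with sums of 314 to 337 TPM in Control and of 309, 326 and 638 TPM in LLC mice, where a single library stood apart. The 4 adipocyte markers (55.6 to 361 TPM in Control, 188 to 954 TPM in LLC) and the 6 fibroblast markers (683 to 946 TPM, 1011 to 1059 TPM) had 0 genes past the threshold, as had the 5 Schwann cell and the 4 mesothelium markers. No marker of these lists was at 0 in all 17 libraries. With the mean of the B cell markers as a covariate, 0 of 8 members and 8 of 13305 genes passed, and the differences were -0.11 for Sgcb, -0.15 for Sspn and -0.22 for Dtna. Mitochondrially encoded transcripts made up 45.9% to 48.4% of TPM in Control mice and 41.3% to 44.3% in LLC mice.

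The LLC + rFibcd1 against LLC comparison asked whether rFibcd1 altered the levels in tumor-bearing mice. None of the 8 members passed (0 of 8, limma), against 0.113% of all genes (15 of 13305), and 3 of 8, Dag1, Sgca and Dtna, had an unadjusted p under 0.05, against 22.7% of all genes. All 3 were higher in LLC + rFibcd1, while the median gene was lower by 0.11. Of the 8 differences, 6 were positive, with a median of 0.075.

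Dag1 stood out by its values. It was at 74.1, 71.9 and 70.8 TPM in LLC mice and at 83.7, 82.9, 84.3 and 80.7 TPM in LLC + rFibcd1 mice. All LLC + rFibcd1 values exceeded all LLC values, a separation in this direction that 5.26% of all genes had, and in either direction 14.6%. The difference was 0.20 ± 0.054 (log2, SE), or 14.8% in mean TPM, with an unadjusted p of 0.00251 and an adjusted p of 0.143 (limma). An exact permutation test over the 35 splits gave 0.0286, the smallest p they allow. The 3 LLC values of Dag1 lay inside the Control range (68.8 to 76.5 TPM), and the 4 LLC + rFibcd1 values lay above it.

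For Sgca, the LLC + rFibcd1 mice were at 128.7, 103.3, 109.1 and 115.9 TPM, overlapping the LLC mice (94.2 to 111.4 TPM). The difference was 0.18 ± 0.071 (log2, SE; adjusted p = 0.204, limma). Dtna was at 19.0, 21.5, 23.1 and 21.7 TPM in LLC + rFibcd1 mice against 17.5 to 19.7 TPM in LLC mice, a difference of 0.17 ± 0.074 (adjusted p = 0.208). For Sgcb and Sspn, both lower in LLC than in Control, the differences of LLC + rFibcd1 from LLC were 0.11 ± 0.065 and 0.041 ± 0.071 (log2, SE), with 95% intervals from -0.030 to 0.25 and from -0.11 to 0.19. Dmd and Utrn, the actin-binding members, differed by 0.028 ± 0.18 and -0.036 ± 0.13. These comparisons share the LLC mice with LLC against Control, so a low or high LLC value enters both. The myofiber markers summed to 57741 to 66715 TPM in LLC + rFibcd1 mice, the B cell markers to 18.0 to 280 TPM and the endothelial markers to 306 to 327 TPM. That endothelial sum lay above the range in each of the 3 other groups, as the Dag1 values did, and its part in the Dag1 values was not tested.

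rFibcd1 in tumor-free mice left no difference that passed. In Control + rFibcd1 against Control, 0 of 8 members passed (0% of all genes) and 0 of 8 had an unadjusted p under 0.05 (4.39% of all genes), with differences from -0.21 for Sgcd to 0.080 for Dtna and adjusted p from 0.927 to 0.939. For Dag1 the difference was -0.040 ± 0.045 (95% interval -0.14 to 0.056). In the interaction of tumor and rFibcd1, the test of the difference between the 2 rFibcd1 effects, 0 of 8 members and 0% of all genes passed. The unadjusted p of this interaction was under 0.05 for Dag1 (0.24 ± 0.070; adjusted p = 0.228, limma) and Sgca (0.21 ± 0.092; adjusted p = 0.541), and for 8.58% of all genes.

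Against Control, LLC + rFibcd1 mice also had 0 of 8 members past the threshold (3.08% of all genes), and 4 of 8, Dmd, Dag1, Sgcb and Sspn, had an unadjusted p under 0.05 (19.9% of all genes). Dag1 was nearest, at 0.18 ± 0.048 (log2, SE; adjusted p = 0.0562, limma), and its values did not overlap those of Control mice (68.8 to 76.5 TPM), as 5.96% of all genes did with LLC + rFibcd1 higher. Sspn, at 56.3, 51.7, 60.8 and 61.3 TPM in LLC + rFibcd1 mice, lay below all Control values, as 2.92% of all genes did. Its difference from Control was -0.16 ± 0.062 (adjusted p = 0.159). Without Control + rFibcd1 replicate 3 or 4, 1 of 8 members passed.

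**Figure D3:**
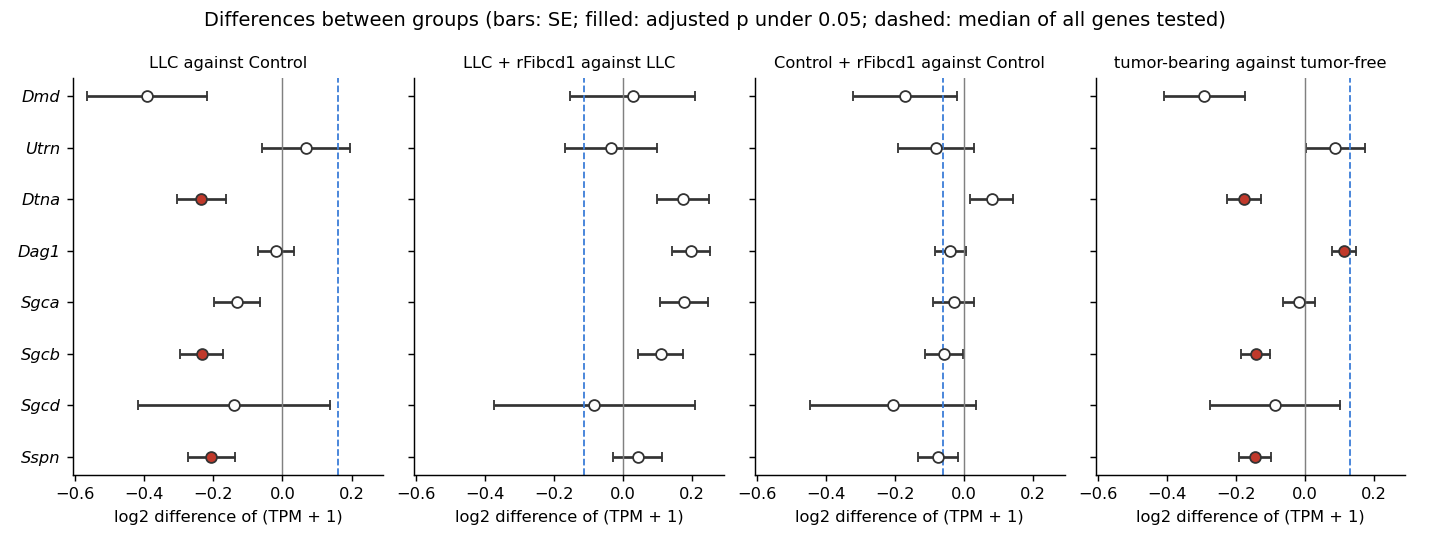
Log2 difference of (TPM + 1) with SE (horizontal axis) for each gene in 4 comparisons; filled points passed an adjusted p of 0.05 and the dashed line is the median of all genes tested. Sgcb, Sspn and Dtna are lower in LLC and in tumor-bearing mice, while the median gene is higher by 0.16 and 0.13.

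Pooling the 7 tumor-bearing mice against the 10 tumor-free mice, 4 of 8 members passed, against 44.8% of all genes (38.8% higher, 5.98% lower). Dtna (-0.18 ± 0.048; adjusted p = 0.0102, limma), Sgcb (-0.14 ± 0.042; adjusted p = 0.0148) and Sspn (-0.14 ± 0.046; adjusted p = 0.0196) were lower. In the same pool 8 of 15 myofiber markers were lower. Higher were 7 of 7 B cell, 5 of 5 T cell, 4 of 6 macrophage, 7 of 8 endothelial and 2 of 6 smooth muscle and pericyte markers, 1 of 5 Schwann cell and 1 of 4 mesothelium markers, and 0 of the fibroblast and adipocyte markers. Relative to the myofiber markers the differences were -0.017 ± 0.083 for Dtna, 0.018 ± 0.060 for Sgcb and 0.015 ± 0.068 for Sspn (adjusted p from 0.800 to 0.864, limma), none past the threshold. On that scale the 2 members called were Dag1 (0.27 ± 0.068; adjusted p = 0.00583) and Sgca (0.14 ± 0.052; adjusted p = 0.0270), both higher but by less than the median gene at 0.29. On the same scale 60.7% of all genes passed, 60.2% higher. With the B cell covariate 0 of 8 members and 4.47% of all genes were called. Without these adjustments Dag1 was higher by 0.11 ± 0.035 (adjusted p = 0.0174), less than the median gene at 0.13, and its difference was -0.035 with median-ratio scaling and -0.0055 with quantile scaling, neither past the threshold. The endothelial markers moved the same way as Dag1, with a median of 0.31, and their part in its difference was not tested. Within the pool, Dag1 was at 70.8 to 74.1 TPM in LLC mice and 80.7 to 84.3 TPM in LLC + rFibcd1 mice, and only the latter were outside the tumor-free range of 65.3 to 78.0 TPM. The difference of Dmd, -0.29 ± 0.12, missed the threshold (adjusted p = 0.0546). Without LLC + rFibcd1 replicate 3 Dag1 missed it (adjusted p = 0.0546), without LLC replicate 3 Sspn did (adjusted p = 0.0510), and Dmd passed without Control replicate 2, Control + rFibcd1 replicate 4 or LLC + rFibcd1 replicate 1 (adjusted p from 0.0260 to 0.0355). No member separated the tumor-bearing from the tumor-free mice without overlap, as 2.26% of all genes did. The share of higher genes among those called moved with the scaling, from 86.7% to 52.8% with median ratios and 35.4% with quantiles.

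Genes of other proteins tied to the complex were compared in the same way. Cav3, the muscle caveolin that binds dystroglycan, was at 70.1 to 73.8 TPM in Control and 55.9 to 63.8 TPM in LLC mice, without overlap. It was lower in LLC, with a difference of -0.24 ± 0.066 (log2, SE; adjusted p = 0.0159, limma). Sgce, a sarcoglycan also made outside muscle fibers, was at 6.43 to 9.38 TPM in Control and 8.93 to 10.8 TPM in LLC mice, and its difference of 0.40 ± 0.15 did not pass (adjusted p = 0.0523). In LLC + rFibcd1 against LLC neither gene passed, with differences of 0.15 ± 0.069 for Cav3 and -0.35 ± 0.16 for Sgce (adjusted p of 0.218 and 0.216, limma).

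Outside the cell, 2 of 9 genes of ligands and binding partners were higher in LLC and 0 lower, beside 29.7% and 6.02% of all genes, with a median of 0.095, under the median gene at 0.16. Those higher were Bgn, a small proteoglycan (107 ± 13.0 TPM in Control, n = 5; 173 ± 7.67 TPM in LLC, n = 3; adjusted p = 0.0104, limma), and Lamb1, a laminin chain (0.39 ± 0.14; adjusted p = 0.0424). Lama2, the laminin chain of the muscle basement membrane whose loss causes a congenital dystrophy, differed by -0.26 ± 0.13 (adjusted p = 0.121), and Agrn, the agrin of the synapse, by 0.30 ± 0.12 (adjusted p = 0.0582).

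Dystroglycan grips laminin through a sugar chain, and 17 of 18 genes for building it were tested. Of these, 3 of 17 were higher in LLC and 0 lower, again beside 29.7% and 6.02% of all genes. Dpm2 (0.48), Dpm3 (0.42) and Pomt1 (0.33) passed with adjusted p of 0.0111, 0.0142 and 0.0198; the first 2 are subunits of the enzyme that makes mannosyl donors for many glycoproteins, and Pomt1 starts the mannose chain. Pomgnt2, the next enzyme, differed by -0.14 (adjusted p = 0.0689). Of 16 genes of the costamere and of membrane repair, 4 were higher and 5 lower; the share higher was under the 29.7% of all genes and the share lower over the 6.02%. Tln2, the talin of mature fibers, differed by -0.41 ± 0.074 (log2, SE; adjusted p = 0.00818, limma), Ank2, an ankyrin that binds dystrophin, by -0.39 ± 0.082 (adjusted p = 0.0100), and Plec, plectin, by -0.22 ± 0.056 (adjusted p = 0.0136). Tln1, the talin of most other cells, was higher by 0.45 ± 0.11 (adjusted p = 0.0112). The medians of these lists were 0.072 for the sugar chain and -0.031 for the costamere, beside 0.16 for all genes.

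**Figure D4:**
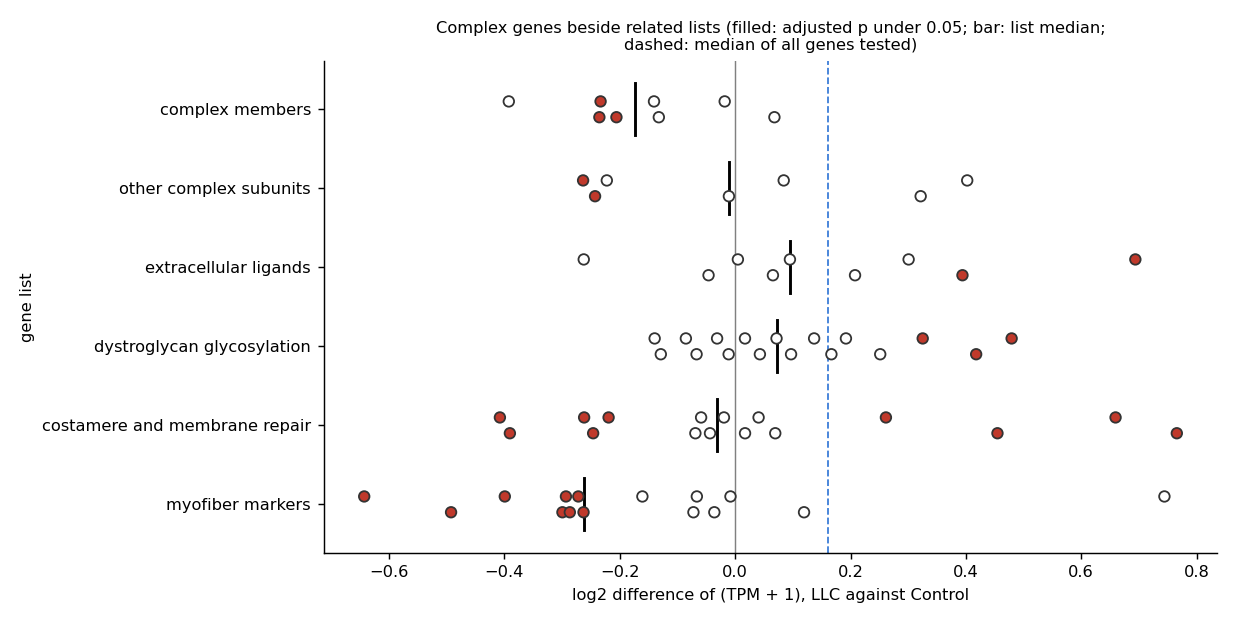
Log2 difference LLC against Control (horizontal axis) of each tested gene in 6 lists (vertical axis); filled points passed an adjusted p of 0.05, short bars are list medians and the dashed line is the median of all genes tested. The complex members (median -0.17) and the myofiber markers (median -0.26) lie mostly left of 0, and the ligands that passed, Bgn and Lamb1, lie to the right.

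Within groups, the members differed in how far mice scattered. The residual SD on the log2(TPM + 1) scale was 0.40 for Sgcd, 0.25 for Dmd and 0.18 for Utrn, and 0.069 to 0.097 for the other 5, beside a median of 0.15 over all genes. These 3 noisy members are also the ones under 10 TPM. Sgcd drew an estimated 349 to 1179 reads per library and Dmd 2439 to 5250.

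The noisy members deviated together. After subtraction of each group's mean, Dmd and Sgcd had a Pearson r of 0.92 over 17 mice (Spearman 0.92; 0.90 without the 2 mice farthest from the Dmd median). Utrn and Sgcd had an r of 0.83 (Spearman 0.81; 0.76 without 2 mice) and Dmd and Utrn an r of 0.71 (Spearman 0.73; 0.76 without 2 mice). Control + rFibcd1 replicate 2 was the highest mouse for both, at 8.69 TPM of Dmd and 5.62 TPM of Sgcd, and replicate 4 of that group was the lowest of the 17 for Sgcd, at 1.58 TPM beside 4.50 TPM of Dmd. Among 8301 genes with a mean of at least 5 TPM, 27 had a higher r with Dmd than Sgcd did. The r of Utrn with Sgcd was exceeded by 90 genes for Utrn and 173 for Sgcd. That of Dmd with Utrn was exceeded by 379 genes for Dmd and 592 for Utrn. The next pairs were Dag1 with Dtna (0.55, or 0.41 without 2 mice) and Sgca with Sgcb (0.54, also without 2 mice). The former r was exceeded by 302 genes for Dag1 and 262 for Dtna, the latter by 302 for Sgca and 290 for Sgcb. The lowest pair was Utrn with Sspn (-0.53, or -0.38 without 2 mice). The points are libraries that share a scale, since each sums to 1000000 TPM, and no p is given.

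**Figure D5:**
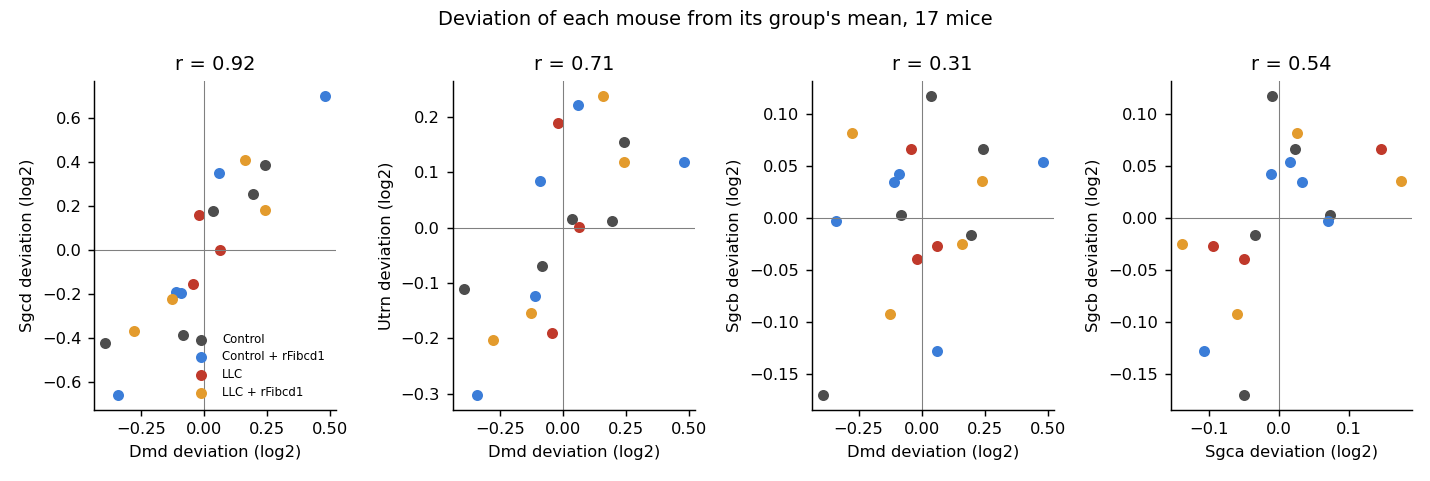
Log2 deviation of each mouse from the mean of its group, for 4 pairs of genes (axes), coloured by group; the number above each panel is Pearson's r over 17 mice. Dmd and Sgcd lie along a line (0.92), and Dmd and Sgcb do not (0.31).

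The genes most like each member were ranked by the same r over 17 mice. Dmd was closest to March6 (0.99) and Ubr3 (0.97), both ubiquitin ligases, Sgcd to Hook3 (0.98) and the kinase Taok1 (0.95), and Utrn to AW549877 (0.94) and the kinase Slk (0.92). Sgca was closest to Coro6 (0.89) and Ndrg2 (0.88), Sgcb to Amotl1 (0.94) and Epm2a (0.88), and Sspn to Cmss1 (0.90) and Fhl2 (0.87). Dag1 was closest to Mrpl50 (0.90) and Bap1 (0.83), and Dtna to Opa3 and Kcnj12 (0.88 each). No member was among the 2 nearest genes of another. Sample-wide measures also moved with some members within groups. For Sgca, r was 0.76 with the mitochondrial share (0.73 without the 2 mice farthest from the median of the share) and -0.73 with the B cell markers (-0.69 without 2 mice). For Sgcb it was 0.63 and -0.69 (0.66 and -0.53 without 2 mice). For Dmd these were -0.28 and 0.018, and for Sgcd -0.43 and 0.25. The part of these measures in the members' scatter was not tested.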

How the data were processed

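Diaphragm RNA was sequenced as paired reads of mRNA libraries, 1 library for each of 17 mice, 3 to 5 in a group. The authors trimmed and filtered the reads, mapped them to GRCm38 (mm10 per the labels) with CLC Genomics Workbench and deposited TPM per gene, scaled to 1000000 in each library. The annotation release and the strandedness of counting are not given in the sources used here, and the labels and the study's methods name different library kits and sequencers. Depth, recovered from the step size of low values with GENCODE M21 exon lengths, was 50.7 to 54.5 reads per library in units of 1000000. These are estimates and entered no test.

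Groups and replicate numbers came from the sample titles, and 0 sample columns were left unused. Genes that reached 1 TPM in 3 or more libraries were kept. Values were log2-transformed after adding a pseudocount of 1 TPM, so that a fold change on this scale understates that of low genes. The 4 groups entered 1 linear model in limma 3.58.1 (R 4.3.3) with 13 residual degrees of freedom, moderated variances with an expression trend, 6 two-sided contrasts and Benjamini-Hochberg adjustment over the 13305 genes with a threshold of 0.05. limma replaced the rank test of the study, which rests on a normal approximation in small groups. The fit was checked on simulated data in which each gene had independent noise, so the check did not cover deviations shared between genes. Intervals are at 95%. Columns were mapped and figures drawn in Python 3.11.15. Promoter windows are from RefSeq, which gave a window for 7 of 8 members. The complex genes and the gene lists were chosen with earlier results of these data known. Named were the 8 members, up to 4 genes of each list with the smallest adjusted p in LLC against Control, and for each member the 2 genes with the highest within-group r. Some genes that this rule selects are not reported here. Alternatives were another pseudocount, no filter, 3 scalings, a B cell covariate, subtraction of myofiber markers, a replicate block, only the groups compared, an exact permutation test and each library left out in turn.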

Additional observations from a re-analysis of the deposited data

How the results depend on the processing

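In LLC against Control the 3 members called became 0 with the B cell covariate, 0 relative to the myofiber markers and 0 with a replicate block, and 0 to 4 with single libraries left out. For the tumor-bearing mice the 4 called became 0 with the B cell covariate, 2 with the block (Dag1 and Dtna) and 2 relative to the myofiber markers, of which only Dag1 was among the 4 (0.27, adjusted p = 0.00583, limma, below the median gene at 0.29, with 60.7% of all genes called), and for LLC + rFibcd1 against Control leaving out a library gave 0 to 1. Causes were not tested. Replicate numbers did not pair the mice: same-numbered libraries correlated between -0.46 and 0.49. For 1 of the 17 libraries, the most similar library of any other group carried the same number. In LLC against Control the replicate block left 5 genes called in place of 4759, and the differences with it were -0.21 for Sgcb, -0.16 for Sspn and -0.24 for Dtna (adjusted p from 0.0680 to 0.0986, limma), beside -0.23, -0.21 and -0.24 without it. All genes called there numbered 8 with the B cell covariate and 24 to 5254 with a library left out. In LLC + rFibcd1 against LLC 15 became 0 to 48 with other settings and 0 to 88 with a library left out. In LLC + rFibcd1 against Control 410 became 173 with the block and 167 to 597 with a library left out. For tumor-bearing mice 5963 became 595 with the B cell covariate, 3782 with the block and 4160 to 6629 with a library left out.

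These signs turned, none of them past the threshold unless stated. In LLC against Control, Utrn was -0.10 with median ratios, -0.20 with quantiles, -0.033 without mitochondrial genes and -0.034 with the B cell covariate, which also gave 0.013 for Dag1 and 0.0077 for Sgca; relative to myofiber markers Dag1 was 0.14, Sgca 0.030 and Sgcd 0.021. In LLC + rFibcd1 against LLC, Utrn was 0.077, 0.15, 0.018 and 0.034 under the first 4 settings and 0.0026 with the replicate block, and Sgcd was 0.010 (median ratios), 0.15 (quantiles), 0.056 (B cell covariate) and 0.0032 (block). In tumor-bearing mice, Utrn was -0.048 (median ratios) and -0.11 (quantiles), Dag1 -0.035 and -0.0055, and Sgca 0.080 with the B cell covariate; relative to myofiber markers Sgca was 0.14 (past the threshold, adjusted p = 0.0270, limma), Sgcb 0.018, Sgcd 0.074 and Sspn 0.015. With libraries left out, Utrn ranged from -0.026 to 0.16 in LLC against Control; in LLC + rFibcd1 against LLC, Dmd ranged from -0.052 to 0.12, Utrn from -0.13 to 0.059 and Sgcd from -0.22 to 0.038; and Sgca in tumor-bearing mice from -0.058 to 0.016. Sgcd drew the fewest estimated reads of the members, with 349 in its lowest library. The part of depth in its scatter was not tested.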
